A study of Mus musculus with 4 samples.

Results

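Single-cell RNA sequencing of the spleen was used to describe what anti-CD20 alone did to the cells of lymphoma-bearing mice. The comparison holds the 501 cells of the anti-CD20 library and the 340 cells of the isotype control library, 841 of the 1770 cells that passed the same limits in the 4 libraries of the study. Cells were chosen by the library prefix of their barcode and by having 300 to 3000 detected genes. Both groups were BALB/c mice that received 10000 BCL1 cells, a transplantable mouse B cell lymphoma, on day 0, and whose spleens were digested with Liberase on day 13. The treated group received anti-CD20 (clone 18B12, a mouse IgG2a) on day 4 by the labels, whereas the single-cell part of the study's methods gives day 1. The control group received isotype control antibody, and its cells carry the prefix PBS in the table. The number of mice behind a library was not stated, and there was 1 library per treatment, so no statistical test was possible and no value below has a replicate. Intervals are 95% limits for counting error only, and treat each transcript as independent. They leave out the variation between mice and between cells.

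CD20, encoded by Ms4a1, is a membrane protein of mature B cells that is lost when they become plasma cells. Antibodies of the mouse IgG2a class bound to CD20 mark a B cell for removal by cells with Fc gamma receptors, chiefly macrophages, and natural killer (NK) cells carry such a receptor too. In the spleen, recirculating follicular B cells form the follicles, marginal zone B cells line their outer edge and carry high levels of the complement receptor CD21, and germinal center B cells divide inside the follicles.

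The anti-CD20 library was the deeper of the pair. Its cells had a median of 1379 unique transcripts (UMIs) and 784 detected genes, against 1031 UMIs and 660 genes under isotype control, and the summed UMIs were 939565 and 440710. Levels are given as counts per 1000000 UMIs (CPM) of the library or class named. The share of mitochondrial transcripts was also higher after anti-CD20, at 59953 against 38143 CPM, and it was higher in each of the 6 classes examined for it, for example 71853 against 44448 CPM in B-like cells. Haemoglobin transcripts, of red blood cells, were 18744 and 11810 CPM of the libraries in that order, and at least 1 such UMI was found in 97.0% and 87.1% of cells. The pair shared 4 barcodes, none of them among the cells kept. The part of depth, mitochondrial content and haemoglobin in the differences below was not tested beyond the values given with them.

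B lineage cells formed a smaller share of the spleen cells after anti-CD20. Taken as one, the B-like and the germinal center classes made up 62.4% of the isotype control library (212 cells, 57.0% to 67.5%) and 40.1% of the anti-CD20 library (201 cells, 35.8% to 44.6%), a difference of -22.2 percentage points (-28.8 to -15.4). The intervals of the libraries did not overlap. Over the other ways of filtering and naming cells this difference stayed between -23.0 and -17.7 points. In such shares, fewer B cells and more cells of other kinds cannot be told apart.

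The lower share lay in one part of the B lineage. B-like cells fell into cluster 0, led by Faim3 (the IgM Fc receptor, also named Fcmr), Fcer2a (CD23, the low-affinity IgE receptor of follicular B cells) and Cd55, and cluster 4, led by Cr2 (CD21), Pcp4, Il9r and Ccr6. Cluster 0 was 42.6% of cells under isotype control (145 cells) and 12.2% after anti-CD20 (61 cells), a difference of -30.5 points (-36.4 to -24.4). Cluster 4 was 8.82% (30 cells) and 9.38% (47 cells), a difference of 0.56 points (-3.60 to 4.41). Germinal center B-like cells, led by genes such as Rgs13, Mybl1 and Nuggc, were 10.9% (37 cells) and 18.6% (93 cells), a difference of 7.68 points (2.77 to 12.3). As a share of B lineage cells, cluster 0 was 68.4% under isotype control and 30.3% after anti-CD20, cluster 4 was 14.2% and 23.4%, and the germinal center B-like cells were 17.5% and 46.3%, a difference of 28.8 points (19.99 to 37.1) for the last. The clusters were built with the genes that lead them, so these shares and the levels of those genes are not separate measurements. With cells named from their own markers rather than by cluster, only 1 and 5 cells were germinal center B-like and the difference in share was 0.70 points.

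**Figure D1:**
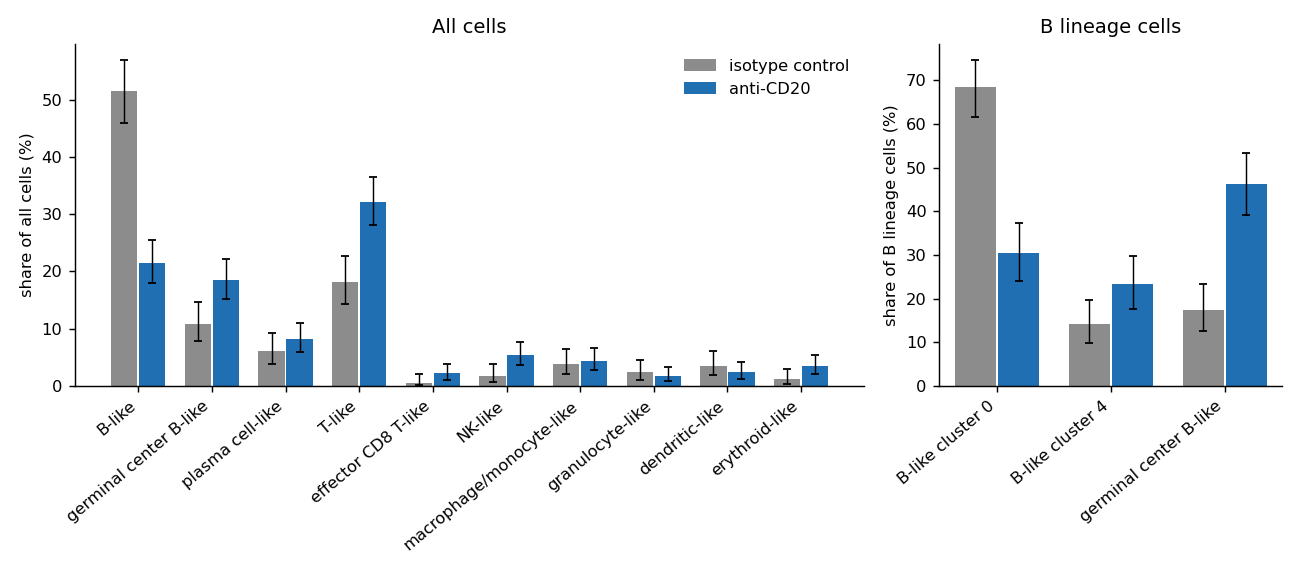
Left, share of all cells (%) in 10 classes under isotype control (grey, 340 cells) and after anti-CD20 (blue, 501 cells), with exact 95% intervals for counting error. Right, share of B lineage cells (%) in B-like clusters 0 and 4 and in germinal center B-like cells. Cluster 0 is the larger group under isotype control at 68.4%, and germinal center B-like cells are the largest after anti-CD20 at 46.3%.

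T-like cells formed a larger share after anti-CD20, at 32.1% (161 cells) against 18.2% (62 cells), a difference of 13.9 points (7.96 to 19.5). NK-like cells were 5.39% (27 cells) against 1.76% (6 cells), a difference of 3.62 points (1.0 to 6.15). Among cells outside the B lineage these differences were 5.23 points (-5.04 to 15.4) for T-like and 4.31 points (-1.53 to 8.85) for NK-like cells, and both intervals held 0. Here and below, cells outside the B lineage are all but the B-like and germinal center classes, so plasma cell-like cells were counted among them. Effector CD8 T-like cells numbered 2 under isotype control and 11 after anti-CD20. Myeloid cells, the macrophage/monocyte-like and granulocyte-like classes, were 6.18% (21 cells) and 6.19% (31 cells), a difference of 0.01 points (-3.55 to 3.25). Plasma cell-like cells were 6.18% (21 cells) and 8.18% (41 cells), but this cluster was mixed. At a finer clustering only 7 and 14 of its cells stayed plasma cell-like.

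The target itself, Ms4a1, lies on mouse chromosome 19 from 11249675 to 11266241 in mm10 and is a protein-coding gene. Over all cells it had 722 UMIs in 192 cells under isotype control and 1577 UMIs in 236 cells after anti-CD20, or 1638 and 1678 CPM, a 1.02-fold ratio (0.938 to 1.12). The B lineage cells that were sampled after anti-CD20 carried the transcript. In cluster 0 it stood at 2109 CPM (1880.4 to 2359) under isotype control and 2584 CPM after anti-CD20 (1.23-fold, 1.03 to 1.45), in cluster 4 at 2687 and 2901 CPM, and in germinal center B-like cells at 3178 CPM (2786 to 3609.6) and 3187 CPM (2976 to 3409.8). Within each library the order was the same, with germinal center B-like cells highest and cluster 0 lowest, and the intervals of neighbours in this order overlapped. In B-like cells 79.4% held a Ms4a1 UMI under isotype control and 91.7% after anti-CD20, at median depths of 990 and 1819.5 UMIs. After thinning every cell to 400 UMIs these shares were 58.7% and 68.9%. In T-like cells, which should lack CD20, 7 of 62 and 10 of 161 cells held a UMI, at 125 and 61.7 CPM.

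Other surface molecules of B cells that antibodies are made against were read beside Ms4a1. None of the 10 genes of this list passed a 2-fold difference over all cells, where 5.44% of the 6636 genes with at least 30 UMIs did so with an interval that left out 1. Those were 171 genes higher and 190 lower after anti-CD20, or 233 higher and 127 lower with TMM scaling, which moved all ratios by 0.10 on the log2 scale. Cd22, an inhibitory coreceptor, stood at 785 and 463 CPM over all cells and Cd37 at 1146 and 824 CPM, each in the order isotype control and anti-CD20. Within B-like cells they were closer, with 1325 and 1112 CPM for Cd22 and 1880.2 and 1481 CPM for Cd37. Cd52 stood at 4418 and 4137 CPM in B-like cells. In germinal center B-like cells, where 6.31% of genes were past 2-fold, 1 of 8 members tested was so, Tnfrsf13c, the receptor for the survival factor BAFF, at 1006 CPM (75 UMIs) and 490 CPM (130 UMIs), 2.05-fold lower (1.52 to 2.75).

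Fcer2a and Faim3, genes of recirculating follicular B cells, were lower after anti-CD20. Over all cells, Fcer2a had 124 UMIs in 60 cells under isotype control and 57 UMIs in 34 cells after anti-CD20, 4.64-fold lower by CPM (3.36 to 6.46). In a sum over all cells, fewer cells of a type and less RNA per cell cannot be told apart. Faim3 was 2.51-fold lower (2.07 to 3.04), at 542 and 216 CPM, and Cd55, which protects cells from complement, was 3.38-fold lower (2.52 to 4.55), at 277 and 82.0 CPM. Of the 12 members of the follicular list tested, 2 were called lower and none higher, where 2.86% of all genes were called lower, and the median log2 ratio of the list was -0.63 against -0.05 over all genes measured. MHC class II genes, which B cells use to present antigen, were all on the lower side but none passed 2-fold. Their median was -0.55 over 12 members, with Cd74 (the invariant chain) 1.67-fold lower (1.61 to 1.73) and H2-Aa 1.60-fold lower (1.51 to 1.69). The list of the B cell receptor and its coreceptors had a median of -0.45, with 0 of 16 members past 2-fold.

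Part of this stood within B-like cells. There 203 of 2729 genes (7.44%) were past 2-fold, 63 higher (2.31%) and 140 lower (5.13%) after anti-CD20. With TMM scaling, which moved the ratios of this class by 0.12 on the log2 scale, the split was 88 higher and 98 lower. Fcer2a stood at 581 CPM under isotype control and 196 CPM after anti-CD20, 2.97-fold lower (2.08 to 4.30). By cluster, in cluster 0 it was 712 CPM (104 UMIs in 49 of 145 cells) and 105 CPM (10 UMIs in 6 of 61 cells), 6.78-fold lower (3.54 to 14.6), whereas in cluster 4 it was 199 and 262 CPM, 1.32-fold higher with an interval that held 1 (0.637 to 2.99). Cd55 in cluster 0 was 623 and 189 CPM, 3.30-fold lower (1.97 to 5.81), and in cluster 4 239 and 193 CPM. Faim3 in cluster 0 was 1164 and 536 CPM, 2.17-fold lower (1.58 to 3.03), and in cluster 4 657 and 501 CPM. The make-up of cluster 0 differed between the libraries. At a finer clustering, its part led by Fcer2a, Faim3 and Cd55 was 127 of 145 cells under isotype control and 42 of 61 after anti-CD20. A part led by Vpreb3 and Akap12 was 3 and 9 cells, and a part led by Cr2 and Pcp4 was 13 and 9 cells. The part of this mix in the cluster 0 ratios, here and below, was not tested. After thinning, Fcer2a was detected in 20.3% of B-like cells of the isotype control and 5.66% after anti-CD20.

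Signaling and regulatory genes of B-like cells that were lower in both clusters included Hvcn1 and Cd79a. Hvcn1, a proton channel that acts in B cell receptor signaling, was 397 CPM under isotype control and 73.5 CPM after anti-CD20 in cluster 0 and 239 and 69.4 CPM in cluster 4. Over B-like cells it was 5.01-fold lower (2.88 to 9.25), with 70 UMIs in 45 cells against 16 UMIs in 14 cells. Cd79a, a signaling chain of the B cell receptor, was 2.03-fold lower (1.54 to 2.71), at 726 and 315 CPM in cluster 0 and 717 and 386 CPM in cluster 4, while its partner Cd79b was 1.27-fold lower (1.09 to 1.47) and did not pass 2-fold. The transcription factors Klf2, which governs lymphocyte trafficking, and Foxo1 were 2.47-fold (1.72 to 3.58) and 2.40-fold lower (1.12 to 5.44) in B-like cells. Klf2 was 1.62-fold lower (1.10 to 2.44) within cluster 0 and 2.01-fold lower (0.635 to 6.06) within cluster 4, where it was scarce. Of the early response genes, Ier2 (2.98-fold, 1.39 to 6.92) and Ier5 (2.34-fold, 1.38 to 4.10) were lower among 9 tested, where 5.13% of all genes were, beside the interferon response factor Irf1 (2.48-fold, 1.21 to 5.40) and the survival gene Mcl1 (2.06-fold, 1.42 to 3.04). S100a8, a gene of neutrophils, was also lower in B-like cells, at 285 and 84.5 CPM, and the summed neutrophil granule list stood at 1274 and 930 CPM there.

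Il9r, Dtx1 and Cd36, genes of marginal zone B cells, were higher in B-like cells after anti-CD20. They were 3 of the 11 tested members of the marginal zone and B1 list, with none called lower, where 2.31% of all genes in this class were called higher. Il9r, the interleukin 9 receptor, had 14 UMIs in 12 cells and 59 UMIs in 39 cells, 3.68-fold higher after anti-CD20 (2.03 to 7.14). Dtx1, a target of Notch signaling, was 2.23-fold higher (1.39 to 3.70), and the scavenger receptor Cd36 3.78-fold higher (1.80 to 8.88). Cluster 4, whose leading genes include Il9r, was 30 of 175 B-like cells under isotype control and 47 of 108 after anti-CD20. Within cluster 4, Il9r stood at 179 and 378 CPM and was 2.11-fold higher (1.03 to 4.89), while Dtx1 and Cd36 were 1.29-fold (0.664 to 2.71) and 1.44-fold higher (0.609 to 3.93) with intervals that held 1. Within cluster 0, Dtx1 was 2.83-fold higher (1.39 to 6.06). Cr2 was 1354 and 1882 CPM in cluster 4, 1.39-fold higher (1.06 to 1.85), and 657 and 462 CPM in cluster 0. Other members had lower values in cluster 4 with intervals that held 1, at 299 and 170 CPM for the chemokine receptor Ccr6, 478 and 339 CPM for Pcp4 and 139 and 38.6 CPM for the transcription factor Bhlhe41. In cluster 0, Ccr6 was 2.25-fold lower (1.04 to 5.36) and Pcp4 2.31-fold lower (1.16 to 5.0). Over all cells 3 of the 16 tested members of the list were called lower, where 2.86% of all genes were, namely Ccr6 (2.71-fold, 1.72 to 4.29), Pcp4 (2.39-fold, 1.65 to 3.46) and Bhlhe41 (2.51-fold, 1.25 to 5.10), and none higher.

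**Figure D2:**
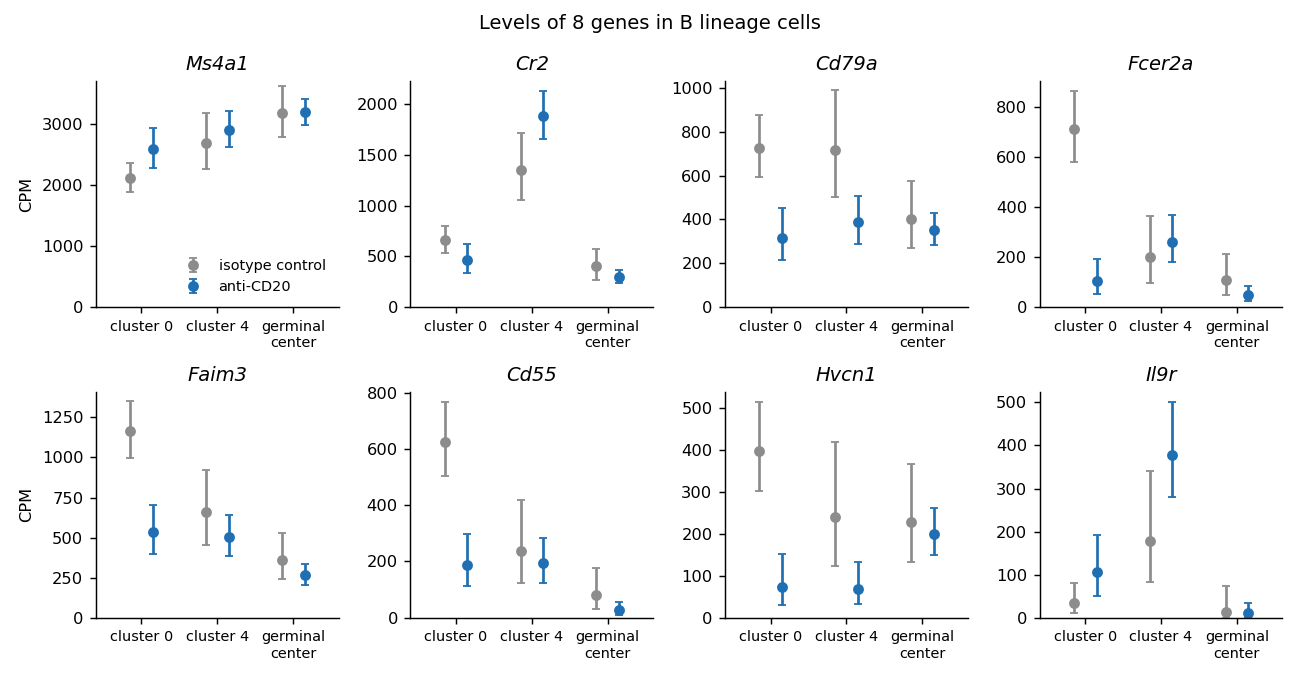
CPM of 8 genes in B-like clusters 0 and 4 and in germinal center B-like cells under isotype control (grey) and after anti-CD20 (blue), with exact 95% Poisson intervals. Ms4a1 differs by no more than 1.23-fold between libraries, Fcer2a, Faim3 and Cd55 are lower after anti-CD20 in cluster 0, Hvcn1 is lower in both B-like clusters, and Il9r is highest in cluster 4 after anti-CD20 at 378 CPM.

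Some transcripts of cell division were higher in B-like cells after anti-CD20. Mki67, a marker of dividing cells, had 15 UMIs in 5 of 175 cells under isotype control and 55 UMIs in 15 of 108 cells after anti-CD20, 3.2-fold higher (1.78 to 6.10). Top2a, which untangles DNA, had 7 UMIs in 4 cells and 48 UMIs in 14 cells, 5.99-fold higher (2.69 to 15.7). Of the 9 mitosis genes tested, 6 were called higher (Mki67, Top2a, Birc5, Cenpe, Cenpf and Hmgb2) and none lower, where 2.31% of all genes in this class were called higher. Cells with at least 5 UMIs of the whole mitosis list were 9 of 175 (5.14%) and 13 of 108 (12.04%), at median depths of 990 and 1819.5 UMIs. They were 3.45% and 13.1% of cluster 0 (1.13% to 7.86% and 5.84% to 24.2%), where Mki67 was 6.14-fold higher (2.62 to 16.6). In cluster 4 they were 13.3% and 10.6%, and Mki67 was 1.31-fold (0.578 to 3.33) and Top2a 1.24-fold higher (0.434 to 4.33), with intervals that held 1. The difference between the clusters was not tested. The median log2 ratio of the list was 1.56 at full depth and 0.23 after thinning every cell to 400 UMIs.

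The immunoglobulin chains of B-like cells differed as well. Ighm, the IgM heavy chain, was 1.95-fold higher after anti-CD20 (1.77 to 2.16), at 2945 and 5756 CPM, with 2.01-fold in cluster 0 and 2.02-fold in cluster 4. Iglc2, the lambda constant gene in the table, was 1.71-fold lower (1.51 to 1.93), and Iglv1, a lambda variable gene, 2.29-fold lower (1.56 to 3.40). The BCL1 lymphoma carries lambda light chains, which few normal mouse B cells do. B lineage cells with at least 3 light chain UMIs were called lambda where Iglc2 outnumbered Igkc. These were 27 of 185 cells (14.6%, 9.84% to 20.5%) under isotype control and 26 of 186 (14.0%, 9.34% to 19.8%) after anti-CD20. The lambda constant genes are near-identical copies that share reads, so a lambda call is uncertain and does not name a lymphoma cell. By group, the lambda calls were 18 of 127 and 8 of 54 in cluster 0, 7 of 25 and 4 of 44 in cluster 4, and 2 of 33 (6.06%, 0.743% to 20.2%) and 14 of 88 (15.9%, 8.98% to 25.2%) in germinal center B-like cells. All of these intervals overlapped between libraries.

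Some germinal center genes were higher over all cells after anti-CD20, and within the germinal center B-like cluster most of the program was not past 2-fold. Over all cells, 4 of 17 genes of the germinal center program were higher, where 2.58% of all genes were higher: Rgs13, a regulator of G protein signaling (46 UMIs in 19 cells against 222 UMIs in 83 cells, 2.26-fold, 1.64 to 3.18), S1pr2, which keeps these cells in the follicle (2.66-fold, 1.30 to 6.14), Gcsam (2.0-fold, 1.25 to 3.35) and Basp1 (2.20-fold, 1.49 to 3.33). All 4 are among the markers that named germinal center B-like cells, which numbered 37 and 93. Their sums over all cells and the share of that class are not separate measurements. Within the class, Rgs13 stood at 563 and 758 CPM and Bcl6, the master factor of the germinal center, at 228 and 219 CPM. The median of the program over 17 members was 0.03 and 1 of the 14 tested was called, Fas, a death receptor of these cells, at 17 UMIs in 7 cells and 18 UMIs in 13 cells, 3.36-fold lower (1.63 to 6.90). After thinning, the log2 ratio of Fas turned to 0.22. Mki67 was 1985 and 1999 CPM, and cells with at least 5 mitosis UMIs were 22 of 37 (59.5%) and 62 of 93 (66.7%).

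In these cells 151 of 2393 genes (6.31%) were past 2-fold, 78 higher (3.26%) and 73 lower (3.05%). With TMM scaling, which moved the ratios by 0.20 on the log2 scale, the split was 149 higher and 32 lower. The genes with the largest ratios by the naming rule included Bcas2, a splicing factor, with 1 UMI under isotype control and 51 UMIs in 31 cells after anti-CD20 (14.3-fold, 2.46 to 578), and Gsk3b, a kinase, with 2 and 52 UMIs (7.31-fold, 1.93 to 62.0). Nfkbia, the inhibitor of NF-kB (2.06-fold, 1.02 to 4.71), Cd81, a coreceptor chain (2.09-fold, 1.04 to 4.78), and Jund (2.88-fold, 1.04 to 11.1) were also higher, and the antiproliferative Btg2 (2.45-fold, 1.31 to 4.49) and the spindle checkpoint kinase Bub1b (2.08-fold, 1.07 to 3.92) were lower. Ccl5 had 1 UMI in 37 cells and 37 UMIs in 15 of 93 cells. It was also found in 11 of 108 B-like cells of the same library, at a median depth of 1819.5 against 2518 UMIs. Ccl5 is not a gene of B cells, and the part of free RNA from other cells in these UMIs was not tested. With each cell thinned to 400 UMIs, 14 genes in all were past 2-fold in this class.

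Chemokine genes and some NK cell genes were higher over all cells after anti-CD20. Of the 5 chemokine genes tested, 4 were called higher, where 2.58% of all genes were. Ccl3, Ccl4 and Ccl5, which attract monocytes and T cells, lie near each other on chromosome 11 of mm10, from 83647844 to 83649355, from 83662584 to 83664683 and from 83525778 to 83530518. Ccl5 had 98 UMIs in 20 cells under isotype control and 934 UMIs in 97 cells after anti-CD20, 4.47-fold higher (3.63 to 5.56). Ccl3 had 5 UMIs in 5 cells and 38 UMIs in 19 cells, 3.56-fold higher (1.40 to 11.6), and Ccl4 had 4 UMIs in 3 cells and 85 UMIs in 18 cells, 9.97-fold higher (3.75 to 37.4). Xcl1, which attracts cross-presenting dendritic cells, had 3 UMIs in 2 cells and 69 UMIs in 14 cells, 10.8-fold higher (3.54 to 53.6). Ccl3, Ccl4 and Ccl5 are among the markers that named effector CD8 T-like cells (2 and 11 cells). Xcl1 is among those that named NK-like cells (6 and 27 cells). Naming used these genes, so their sums over all cells and the shares of those classes are not separate measurements. A single T-like cell with 1347 UMIs held 44 of the Ccl4, 35 of the Xcl1 and 10 of the Ccl3 UMIs after anti-CD20, with no UMI of Ccl5, Cd3e, Cd4 or Cd8a. Without the cell that held most, the log2 ratio with a pseudocount of 10 CPM was 1.49 for Ccl4 and 1.46 for Xcl1, against 2.40 and 2.31 with it.

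Of 13 NK cell receptor genes tested, 6 were higher and none lower, against the same 2.58% of all genes higher. These were Ncr1 (NKp46; 15 and 72 UMIs, 2.25-fold, 1.28 to 4.23), Klrb1c (NK1.1; 5 and 33 UMIs, 3.10-fold, 1.20 to 10.2), Klrd1 (CD94; 25 and 112 UMIs, 2.1-fold, 1.35 to 3.38), Klrk1 (NKG2D; 12 and 52 UMIs, 2.03-fold, 1.07 to 4.18), Klre1 (9 and 44 UMIs, 2.29-fold, 1.10 to 5.34) and Klrg1, a receptor of mature NK and effector T cells (1 and 30 UMIs, 14.1-fold, 2.34 to 574). All of these but Klrg1 are among the markers that named NK-like cells, as are Gzma, Prf1 and Eomes below. Nkg7 below is among the markers that named effector CD8 T-like cells. NK-like cells numbered 6 and 27, and the sums of their markers over all cells are not measurements separate from that share. Cd160, another receptor of NK and effector T cells, had 2 and 38 UMIs (8.91-fold, 2.3 to 76.3). Among 8 granule genes 2 were called higher, with that same share of 2.58% over all genes: Gzma (granzyme A; 57 and 297 UMIs, 2.44-fold, 1.84 to 3.30) and Nkg7 (52 and 279 UMIs, 2.52-fold, 1.87 to 3.45). Prf1 (perforin) had 7 and 33 UMIs and Gzmb 4 and 21 UMIs with intervals that held 1. Eomes, a transcription factor of NK and memory T cells, had 6 and 41 UMIs (3.21-fold, 1.35 to 9.24), and Il2rb, a chain of the interleukin 2 and 15 receptors, 7 and 42 UMIs (2.81-fold, 1.25 to 7.42). Ifng, the cytokine of activated NK and T cells, had 1 and 3 UMIs, too few to compare.

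**Figure D3:**
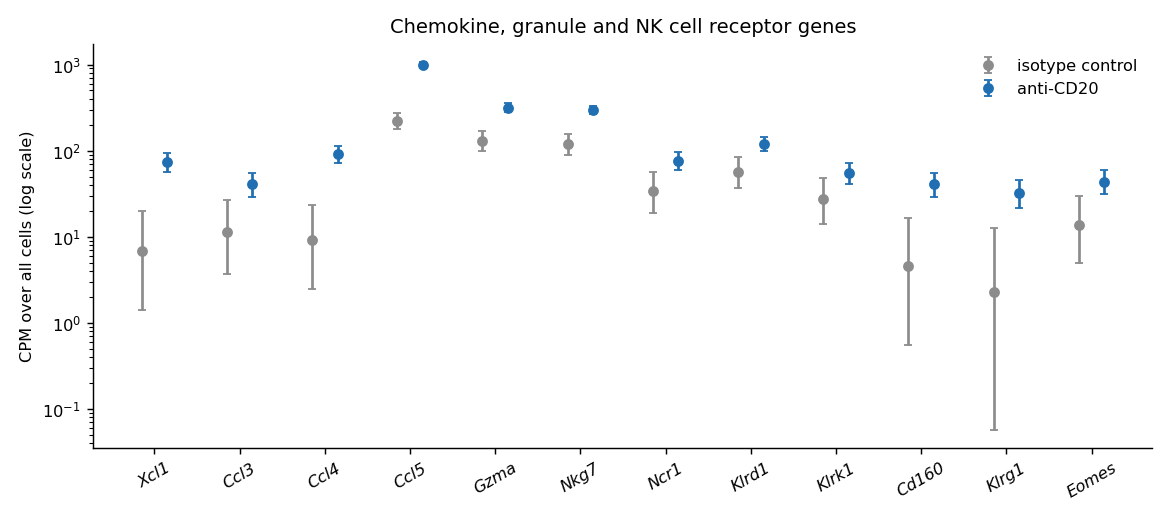
CPM over all cells, on a log scale, of 12 chemokine, granule and NK cell receptor genes under isotype control (grey) and after anti-CD20 (blue), with exact 95% Poisson intervals. Each gene is higher after anti-CD20, with ratios from 2.03-fold for Klrk1 to 14.1-fold for Klrg1, and the isotype control points rest on 1 to 98 UMIs.

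NK-like cells held most of the Ccl5 and Gzma transcripts, and within those cells the levels of both had ratios with intervals that held 1. NK-like cells held 75 of 98 Ccl5 UMIs under isotype control and 581 of 934 after anti-CD20, when effector CD8 T-like cells held 135 and T-like cells 111. They also held 49 of 57 and 277 of 297 Gzma UMIs, but after anti-CD20 only 33 of 85 Ccl4 and 12 of 69 Xcl1 UMIs. Within the 6 and 27 NK-like cells, Ccl5 stood at 15078 and 17529 CPM (1.16-fold, 0.913 to 1.5), Gzma at 9851 and 8357 CPM (1.18-fold lower, 0.852 to 1.60), Ncr1 at 1608 and 1901 CPM (1.18-fold, 0.565 to 2.86) and Klrd1 at 1809 and 2172 CPM (1.20-fold, 0.599 to 2.73). Klrg1 had 1 UMI in 6 cells and 18 UMIs in 11 of 27 cells, and Eomes had none in 6 cells and 26 UMIs in 12 of 27 cells, too few under isotype control to give a ratio. A single isotype control NK-like cell held 363 of the 370 haemoglobin UMIs of that group.

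**Figure D4:**
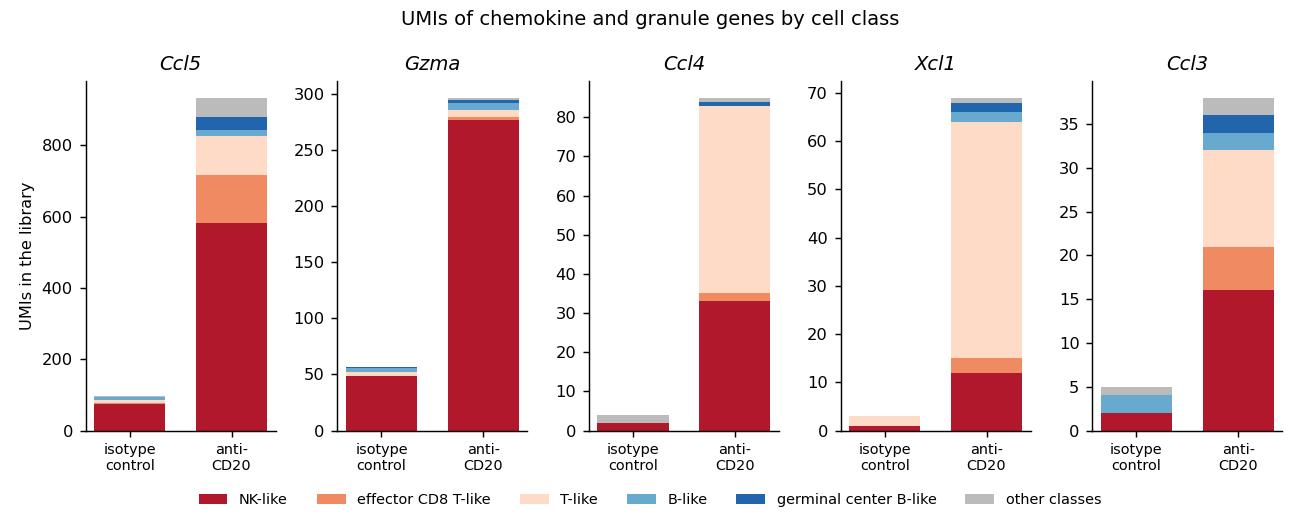
UMIs of Ccl5, Gzma, Ccl4, Xcl1 and Ccl3 in each library, split by the class of the cells that held them; the anti-CD20 library has more UMIs in all (939565 against 440710). NK-like cells (dark red) hold 581 of 934 Ccl5 and 277 of 297 Gzma UMIs after anti-CD20, and T-like cells (pale) hold 49 of 69 Xcl1 UMIs.

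In T-like cells 114 of 1711 genes (6.66%) were past 2-fold, 59 higher (3.45%) and 55 lower (3.21%) after anti-CD20. TMM scaling, which moved the ratios by 0.19 on the log2 scale, gave 101 higher and 32 lower. Genes of recent activation were among the higher ones: Cd69, an early activation antigen that holds lymphocytes in tissue, had 1 UMI in 1 of 62 cells and 30 UMIs in 19 of 161 cells (11.1-fold, 1.85 to 454), and Tnfrsf18, which encodes the costimulatory receptor GITR, had 5 and 35 UMIs (2.6-fold, 1.01 to 8.49). They were 2 of the 7 tested members of the activation list, whose median over 15 members was 0.19. The survival gene Bcl2 had 6 and 39 UMIs (2.41-fold, 1.01 to 6.97), Ldha of glycolysis 15 and 85 UMIs (2.1-fold, 1.21 to 3.92), and the stress factor Atf4 3 and 29 UMIs (3.58-fold, 1.11 to 18.4). Mphosph8, a chromatin silencer, had none and 31 UMIs in 26 cells, 3.83-fold higher against a floor of 3 UMIs under isotype control. The lower limit of its log2 ratio was 1.55. Romo1, a mitochondrial protein, had 1 and 42 UMIs in 32 cells (15.6-fold, 2.65 to 630). Of 17 naive T cell genes 1 was called (Bcl2), and Lef1 stood at 805 and 617 CPM and Tcf7 at 444 and 515 CPM.

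Lower in T-like cells were Cd74 (39 and 40 UMIs, 2.63-fold, 1.65 to 4.19), Ly6e, an interferon-induced gene (28 and 29 UMIs, 2.6-fold, 1.49 to 4.53), S100a4 (26 and 22 UMIs, 3.19-fold, 1.74 to 5.90), Malt1, which links antigen receptors to NF-kB (20 and 18 UMIs, 3.0-fold, 1.5 to 6.01), and the integrin chain Itgb1 (50 and 67 UMIs, 2.01-fold, 1.37 to 2.95). Cd74 marks B and myeloid cells rather than T cells, and Iglc2, a B cell transcript, was lower as well (17 and 15 UMIs, 3.06-fold, 1.44 to 6.57). S100a8 and S100a9 of neutrophils were lower too, but a single isotype control cell held 96 of the 131 UMIs of the neutrophil list. A single isotype control cell likewise held 1596 of 1751 haemoglobin UMIs. Whether these cells or free RNA have a part in the lower genes was not tested. Without the cell that held most UMIs of each gene, 69 genes were past 2-fold in T-like cells. Among T-like cells, those with a Cd4 UMI and no Cd8 UMI were 19.4% and 21.7%, those with a Cd8 UMI and no Cd4 UMI 22.6% and 31.1%, a difference of 8.48 points (-5.08 to 19.9), and those with a Foxp3 UMI, the factor of regulatory T cells, numbered 2 of 62 and 7 of 161.

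Myeloid cells, which take up antibody-coated B cells, were few, 21 under isotype control and 31 after anti-CD20. Over all cells, 9 of 13 neutrophil granule genes were lower and 1 was higher, where 2.86% of all genes were lower and 2.58% higher. Ltf (lactoferrin) was 3.99-fold lower (2.96 to 5.41), Camp 2.25-fold lower (2.0 to 2.53), Ngp 3.24-fold lower (2.86 to 3.66), S100a8 2.53-fold lower (2.35 to 2.72) and Chi3l3 10.2-fold lower (5.11 to 22.7). These transcripts lay in very few cells: 5 granulocyte-like cells held 128 of 131 Ltf UMIs under isotype control and 3 held 67 of 70 after anti-CD20. Ctsg (cathepsin G), the higher member, had 32 UMIs in 4 cells after anti-CD20 and none under isotype control, 5.0-fold higher against the floor. The granulocyte-like class was 8 cells against 9, with 5 and 3 of them in cluster 10, which was led by Camp, Ngp and Ltf.

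Within these myeloid cells, 73 of 407 genes (17.9%) were past 2-fold. Antigen presentation genes were higher after anti-CD20 in 4 of the 5 MHC class II genes tested, where 9.58% of all genes in these cells were higher: Cd74 (44 and 317 UMIs, 3.30-fold, 2.40 to 4.63), H2-Aa (14 and 87 UMIs, 2.85-fold, 1.61 to 5.42), H2-Ab1 (17 and 94 UMIs, 2.53-fold, 1.5 to 4.53) and H2-Eb1 (5 and 91 UMIs, 8.34-fold, 3.45 to 26.3). B cell markers went with them, at 578 CPM (16 UMIs) and 1689 CPM (102 UMIs) for the whole B-like list, and so did Ighm (none and 31 UMIs) and haemoglobin (2385 and 69868 CPM, with 2211 of 4220 UMIs in 1 cell). Their part in the MHC class II values was not tested. Granulocyte-like cells were 8 of 21 and 9 of 31 of this class. Within the 13 and 22 macrophage/monocyte-like cells alone, 34 of 270 genes (12.6%) were past 2-fold, and 2 of the 5 MHC class II genes were called higher, where 5.19% of all genes were: H2-Eb1 and Cd74 (2.23-fold, 1.60 to 3.16). H2-Aa was 1.93-fold higher (1.07 to 3.77) there. Few genes of tissue macrophages were past 2-fold. In the pooled class 1 of 4 complement genes (C1qb), 1 of 6 iron recycling genes (Hmox1, which breaks down haem) and 2 of 8 phagocytosis genes (Axl, a receptor for dying cells, and the protease Ctsb) were called higher and none lower. Within macrophage/monocyte-like cells none of these lists had a member called higher, and C1qb (1.37-fold, 0.789 to 2.51), Hmox1 (1.37-fold, 0.744 to 2.71) and Axl (1.5-fold, 0.658 to 3.99) had intervals that held 1. There Spic, a transcription factor of iron-recycling macrophages, was 2.24-fold lower (1.14 to 4.29), 1 of 6 members of its list where 7.41% of all genes were lower, and Vcam1 was 1.53-fold lower (0.870 to 2.61). Ly6c2, a marker of monocytes, was 2.06-fold lower (1.51 to 2.80) in the pooled class and 3.18-fold lower (2.31 to 4.39) in macrophage/monocyte-like cells. The mix of clusters in those 13 and 22 cells differed. Cluster 11, led by F13a1 and Ccr2 and with Ly6c2 among its top genes, was 6 and 6 cells. Cluster 14, led by C1qb and C1qa, was 5 and 12 cells. The part of this mix in the Ly6c2 ratio was not tested. Fcgr4, one of the activating receptors that bind mouse IgG2a, was without a UMI in 21 control cells and had 10 UMIs in 9 of 31 treated cells. Against a floor of 3 UMIs under isotype control, Fcgr4 was 1.53-fold higher. Fcgr3 stood at 361 and 364 CPM on 10 and 22 UMIs. Cxcl9, induced by interferon gamma, had 13 UMIs in 1 cell after anti-CD20 and none under isotype control.

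Interferon-stimulated genes lay on both sides. None of the 30 tested over all cells was past 2-fold, and the median of the 35 measured was -0.03. Isg15 had 47 UMIs in 24 cells and 87 UMIs in 52 cells, 1.15-fold lower by CPM (0.790 to 1.66), and Ifitm3 86 and 184 UMIs, a ratio of 1.0 (0.773 to 1.31). The list of the interferon gamma axis had 0 of 9 past 2-fold.

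**Figure D5:**
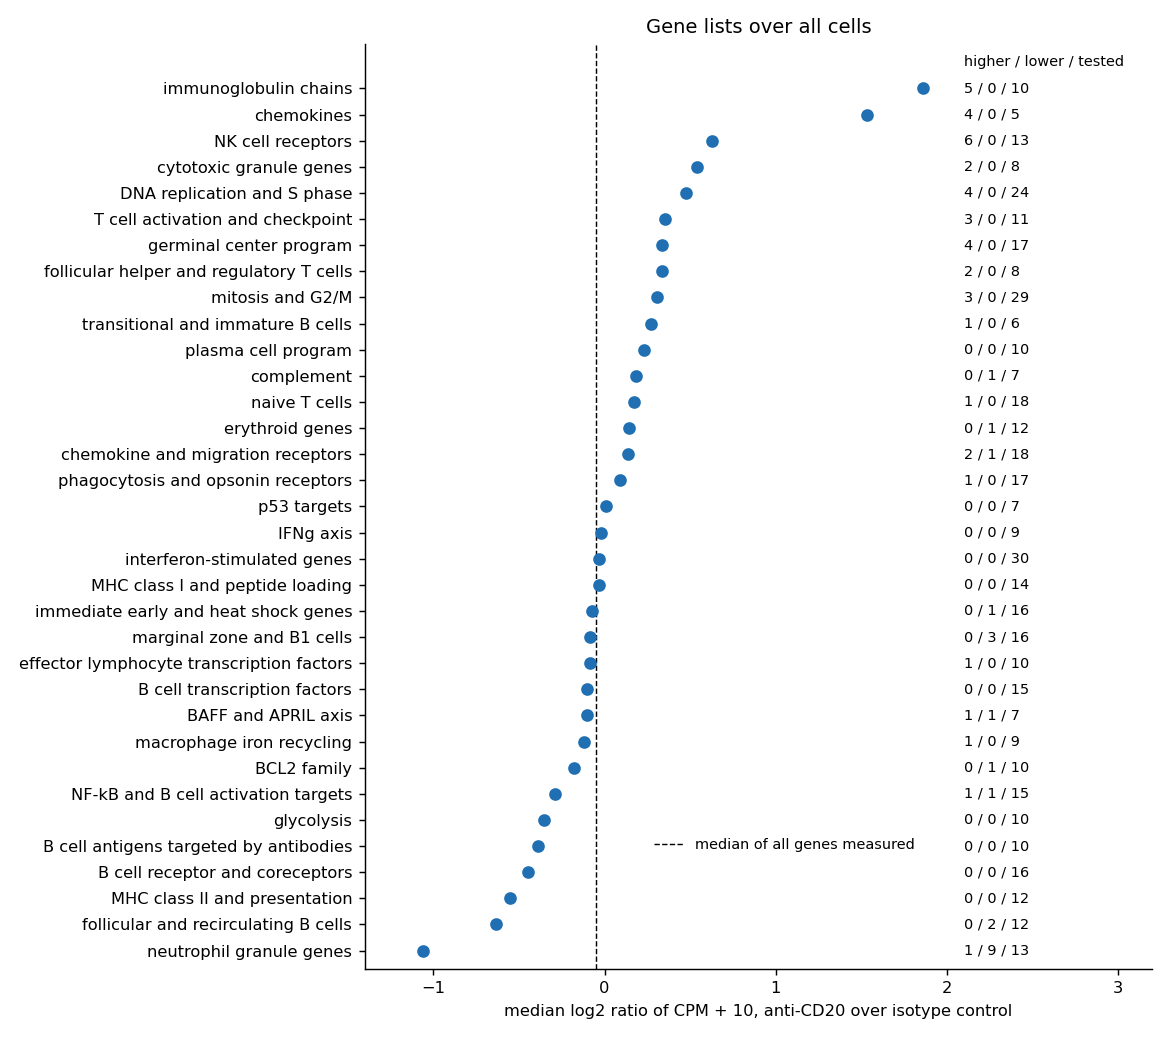
Median log2 ratio (anti-CD20 over isotype control, CPM plus 10) over all cells for the 34 gene lists with at least 5 members tested, beside the number called higher, called lower and tested. The dashed line is the median of all genes measured, -0.05. Immunoglobulin chains and chemokines lie farthest to the right and neutrophil granule genes farthest to the left.

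Switched immunoglobulin genes were higher over all cells. Ighg1 had 2 UMIs under isotype control and 817 after anti-CD20, Igha 8 and 1249, Ighg2b 38 and 1676 and Ighg2c 31 and 2141. They came from few cells. Plasma cell-like cells held 795 of the 817 Ighg1 UMIs in 3 cells, 1 of which held 786, and the top 3 cells of the library held 97.8% of the Ighg2c UMIs. BALB/c mice carry Ighg2a, whereas mm10 is of a strain with Ighg2c, so reads of the former may have been split over Ighg2b and Ighg2c and their values are uncertain. Of the plasma cell-like cells, 5 under isotype control had at least 50 heavy chain UMIs and all of these carried mainly Ighm. After anti-CD20 there were 12, of which 6 carried mainly Ighm, 3 Igha, 2 Ighg2c and 1 Ighg1. Igj, the joining chain of secreted IgM and IgA, was 1.44-fold higher over all cells (1.34 to 1.54).

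Anti-CD20 was also given in the combination arm, whose fitting control is anti-CD27 alone, and these libraries share no cells with the pair above. The B lineage was 38.4% of cells after anti-CD27 and 0.694% after the combination, a difference of -37.7 points (-42.1 to -33.4), and no germinal center B-like cell was found in either. Fcer2a had 111 UMIs and none. Xcl1 (6 and 44 UMIs, log2 ratio 2.86, 1.63 to 4.38), Gzma (100 and 494 UMIs, 2.29, 1.98 to 2.62) and Ncr1 (3 and 55 UMIs, 4.18, 2.56 to 6.50) were higher with anti-CD20 there too. NK-like cells numbered 1 after anti-CD27 and 12 after the combination, and the part of these numbers in the ratios of that pair was not tested. Ccl5 had a log2 ratio of 0.38 there against 2.16 for anti-CD20 over the isotype control, Ccl4 0.10 against 3.32 and Klrg1 0.06 against 3.81, and S100a8 0.41 against -1.34. The difference between these pairs was not tested.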

How the data were processed

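Spleen cells of 1 anti-CD20 and 1 isotype control library were profiled by Drop-seq, in which transcripts carry a barcode for the cell and an identifier for the molecule (UMI). The authors removed read pairs with low-quality barcodes, trimmed adapters and polyA, aligned to mm10 with STAR 2.5.0a and deposited unfiltered raw UMI counts per gene and barcode, 17252 genes in 3198 barcodes over 4 libraries. The study's limits of 300 and 3000 detected genes were applied to barcodes and left 340 of 799 and 501 of 800 barcodes. Their UMI totals of 440710 and 939565 set the precision, and the floor is 3 counts.

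Cells of all 4 libraries were clustered together (2000 variable genes, 30 components, 15 neighbours, Leiden resolution 1.0) into 17 clusters. Listed genes set aside for the treatment response were left out of the variable genes. Cell type markers among them, other than Ccl3, Ccl4, Ccl5 and Ifng, could still enter, for example Fcer2a, Cd79a, Rgs13, Ncr1, Gzma and Ltf. For such markers, class shares and reported levels are not separate measurements. Clusters were named from markers among the top 50 genes by fold, with at least 3 markers, a rule set after the clusters were seen. NK-like also required few cells with Cd3 and effector CD8 T-like many with Cd8. Scrublet called 4 doublets under isotype control (1.18%) and 3 after anti-CD20 (0.599%), against 0.904% of the cells of all 4 libraries. The called doublets were kept. Barcodes close in sequence to another, a sign of 1 droplet read as several, numbered 1 and 17.

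UMIs were summed by library and class and divided by the summed total. Intervals were exact: Clopper-Pearson for shares, Newcombe for differences in shares, Poisson for CPM and conditional binomial for ratios, each at 95%. A gene with at least 30 UMIs in the pair was called when its ratio was at least 2-fold and its interval left out 1. List medians used log2 of CPM plus 10 over members with at least 10 UMIs. Named genes were the 15 largest ratios each way in each class of 20 or more cells per library, in at least 5 cells and with no cell holding most of the UMIs, the called members and 4 most abundant members of each list, and 10 genes of the study's question. A few genes outside this rule, chosen after their values were seen, are named for their role or level. Some genes are not reported here. The members and lists were chosen with earlier results of these data known. Alternatives were other gene limits, doublet removal, finer clusters, classes from each cell's own markers, thinning, TMM scaling, a total without haemoglobin, immunoglobulin and mitochondrial genes, a higher UMI minimum, other pseudocounts, and leaving out the top cell. Coordinates are from GENCODE M21 on GRCm38, the assembly named mm10. Scripts ran in Python 3.11.15 with numpy 2.4.6, scipy 1.17.1, pandas 2.3.3, scikit-learn 1.9.0, leidenalg 0.10.2, scanpy 1.11.5 and matplotlib 3.10.9, and in R 4.3.3 with edgeR 4.0.16, which gave TMM factors only, and were tested on simulated data.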

Additional observations from a re-analysis of the deposited data

Results flagged for a closer look

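Barcodes with fewer than 300 detected genes lay outside the comparison and carried mostly red blood cell transcripts after anti-CD20: haemoglobin genes made up 69.3% of the UMIs in its 294 such barcodes, against 45.6% in the 457 of the isotype control. Of such barcodes with at least 100 UMIs, haemoglobin was 50% or more of the UMIs in 125 of 290 after anti-CD20 and in 86 of 423 in the isotype control. These barcodes drew attention because their signal stood above that of the control library in data that no comparison used. Among the cells kept, haemoglobin was also higher after anti-CD20, including in B-like cells (8776 against 2670.4 CPM). Its part in the other values was not tested.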

How the results depend on the processing

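No paired analysis was possible because each treatment had 1 library and no replicate number, and for the same reason no replicate could be left out. Over 9 other ways of filtering, clustering and naming cells, the difference in the share of B lineage cells stayed between -23.0 and -17.7 points, and those of T-like and NK-like cells kept their direction. The share of germinal center B-like cells differed by 7.68 points, but by 0.70 where each cell was named from its own markers. Their genes were not run under that naming, with 1 and 5 cells.

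Counts of genes past 2-fold depended on depth. Thinning each cell to 400 UMIs gave 164 over all cells (361 at full depth), 41 in B-like (203), 14 in germinal center B-like (151) and 26 in T-like cells (114), and left 6 of the 120 named differences past 2-fold. Requiring 60 UMIs gave 153, 55, 38 and 32, and 18 named. Fewer UMIs or genes enter both by construction. Naming each cell from its own markers gave 354 in B-like cells and 76 named. Among settings chosen after seeing the data, leaving out the cell with most UMIs of each gene gave 69 in T-like cells and 76 named. Cluster 0 alone gave 128 and cluster 4 alone 82 in B-like cells, and T-like cluster 5 alone 27. Cluster 0 with T-like cluster 1 left 13 named and cluster 4 with T-like cluster 5 left 3, since genes of other classes were then not counted. The log2 ratio of Fas in germinal center B-like cells turned to 0.22 and that of Dtx1 there to -0.30 after thinning, and that of Fcer2a to 0.38 in cluster 4 alone. The cause was not tested. In all, 132 of the other values for whole comparisons moved little and 20 moved, and for single genes and lists 713 moved little, 51 moved and 3 reversed.

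With 1 library on each side, intervals hold counting error only, and differences between mice cannot be told apart from those of treatment. NK-like, effector CD8 T-like and myeloid cells were too few for more than large ratios to show.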

Other observations

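Some cell cycle genes were higher over all cells after anti-CD20. Of 24 genes of DNA replication tested, 4 were higher and none lower, where 2.58% of all genes were higher: Gins2, part of the replicative helicase (3 UMIs under isotype control and 37 after anti-CD20, 5.79-fold, 1.83 to 29.3), Uhrf1, which copies DNA methylation (10 and 61 UMIs, 2.86-fold, 1.46 to 6.26), Mcm5 (23 and 108 UMIs, 2.20-fold, 1.39 to 3.62) and Hells (31 and 137 UMIs, 2.07-fold, 1.39 to 3.17). Of 29 mitosis genes tested, 3 were higher, Top2a, Cdk1 and Cenpf, and none lower, against the same 2.58%. Cells with at least 5 mitosis UMIs were 14.7% of the isotype control and 26.7% of the anti-CD20 library, beside the larger share of germinal center B-like cells and the greater depth of the latter.

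Dendritic-like cells numbered 12 in each library. They were 9.38% of the cells outside the B lineage under isotype control and 4.0% after anti-CD20, a difference of -5.38 points (-11.9 to -0.514). Naaa, an enzyme abundant in cross-presenting dendritic cells, had 73 and 38 UMIs over all cells, 4.10-fold lower (2.73 to 6.23), and dendritic-like cells held 58 and 21 of these. A single isotype control cell held 34 of the 73 Naaa UMIs, and the top cell after anti-CD20 held 10 of the 38. Erythroid-like cells were 1.18% (4 cells) and 3.39% (17 cells), a difference of 2.22 points (0.00990 to 4.32). Over all cells, of which 62 and 161 were T-like, Ikzf2, a factor of regulatory T cells, had 13 and 68 UMIs (2.45-fold higher, 1.34 to 4.84). Dapl1, a gene of resting CD8 T cells, had 23 and 105 UMIs (2.14-fold higher, 1.35 to 3.53). Within T-like cluster 5, led by Cd8b1, Dapl1 and Cd8a, Dapl1 stood at 675 and 777 CPM (1.15-fold, 0.624 to 2.27), with an interval that held 1.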
